A study of Mus musculus with 6 samples.

Results

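Conjugating drug enzymes attach a polar group to drugs, hormones, bilirubin and reactive metabolites, which are then exported from the hepatocyte in bile or blood. The genes described here encode 3 families of such enzymes in mouse liver. They were taken as every target whose gene description named a UDP-glucuronosyltransferase (UGT), a glutathione S-transferase (GST) or a member of the sulfotransferase (SULT) family. Where a gene had several targets, the brightest by its mean log2 value on the 6 arrays stands for it, a choice blind to treatment. This gave 50 genes from 54 targets, out of 36557 features made from 44170 targets on the array. Of the 50 genes, 13 were UGT, 26 GST and 11 SULT by their descriptions. A symbol on the same chromosome was found in the RefSeq gene table for 47 of them. The other 3 are a pi-class-like GST locus (LOC100042625), a clone with a GST C-terminal-like domain and a clone described as similar to a glucuronyltransferase of the GlcAT-S type, which extends sugar chains. Ugt8a, too, is no drug enzyme, since it makes the myelin lipid galactocerebroside.

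The arrays measured liver RNA of wild-type C57 BL/6 male mice aged 9 to 10 weeks. One group of 3 mice received 0.01 µg of LPS (lipopolysaccharide, which activates Toll-like receptor 4). The other group of 3 mice received the same LPS with 20 mg of GalN (D-galactosamine), and all were treated for 2.5 h. Per the labels, each replicate came from a separate treatment. Both groups carried LPS. Untreated livers and livers after GalN without LPS were not analysed here, and every difference below sets LPS/GalN against LPS.

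UGT enzymes sit in the endoplasmic reticulum and use UDP-glucuronic acid, which hepatocytes make from UDP-glucose. GalN enters the galactose pathway, is phosphorylated by galactokinase and is held as UDP-sugar derivatives, which drains the uridine nucleotides of the hepatocyte. GST enzymes couple reduced glutathione to electrophiles and are classed as alpha, mu, pi, theta, omega, kappa and the membrane-bound microsomal forms. SULT enzymes transfer a sulfonate group from the donor PAPS to phenols, steroids and bile acids. Many genes of these families respond to the transcription factors NRF2 (gene Nfe2l2), AHR, CAR (Nr1i3) and PXR (Nr1i2).

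Array values were RMA intensities, given below as log2, and a difference is the mean of LPS/GalN minus the mean of LPS on that scale. The median intensity of an array lay between 60.4 and 63.1, and a row of random probes, used as the background level, between 31.3 and 34.7. All 8 hepatocyte markers examined were measured, with a median log2 intensity between 15.17 and 15.40 on the 6 arrays, close to the highest values (15.83 to 15.92), so their level says little about the share of hepatocytes. Transcripts of other tissues were high on some arrays. The median of 9 intestine markers was 10.48 and 11.06 on LPS replicates 1 and 2 against 5.53 to 6.01 on the other 4 arrays. The median of 5 thymus markers was 10.54 and 9.51 on LPS/GalN replicates 2 and 3 against 5.24 to 5.89 elsewhere. The summed intensity of 6 sinusoidal endothelium markers was 3553 to 6177 on the LPS arrays and 8840 to 10552 on the LPS/GalN arrays. That of 6 Kupffer cell markers was 4036 to 5549 on the LPS arrays and 6500.5 to 8818 on the LPS/GalN arrays. The part of these transcripts in the differences below was not tested.

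Most conjugating enzymes differed little between LPS/GalN and LPS livers, and none passed the test. With limma and Benjamini-Hochberg adjustment over all 36557 features, 0 of the 50 genes passed an adjusted p of 0.05 in either direction. Over all features 3.62% passed, 0.602% as higher and 3.02% as lower. A count of 0 among 50 is not far from these shares, and nothing particular to the enzymes is read from it. At an unadjusted p under 0.05, 4 of the 50 were higher and 2 lower, beside 8.49% and 9.05% of all features. The groups did not overlap for 12 genes with higher and 2 genes with lower LPS/GalN values, beside 13.0% and 11.1% of all features (24.0% in either direction). Among the 4492 features at or above the members' median level, 1412 had groups that did not overlap with higher and 777 with lower values. When the fit let the spread depend on the level and was made robust to outlying genes, 3 members passed as higher and 0 as lower. They were Gstm1 (adjusted p = 0.00475), Gstm3 (0.0107) and Ugt2b5 (0.0490), where 2.47% of all features passed as higher and 4.46% as lower. The call on these 3 genes therefore depends on that choice of variance model.

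**Figure D1:**
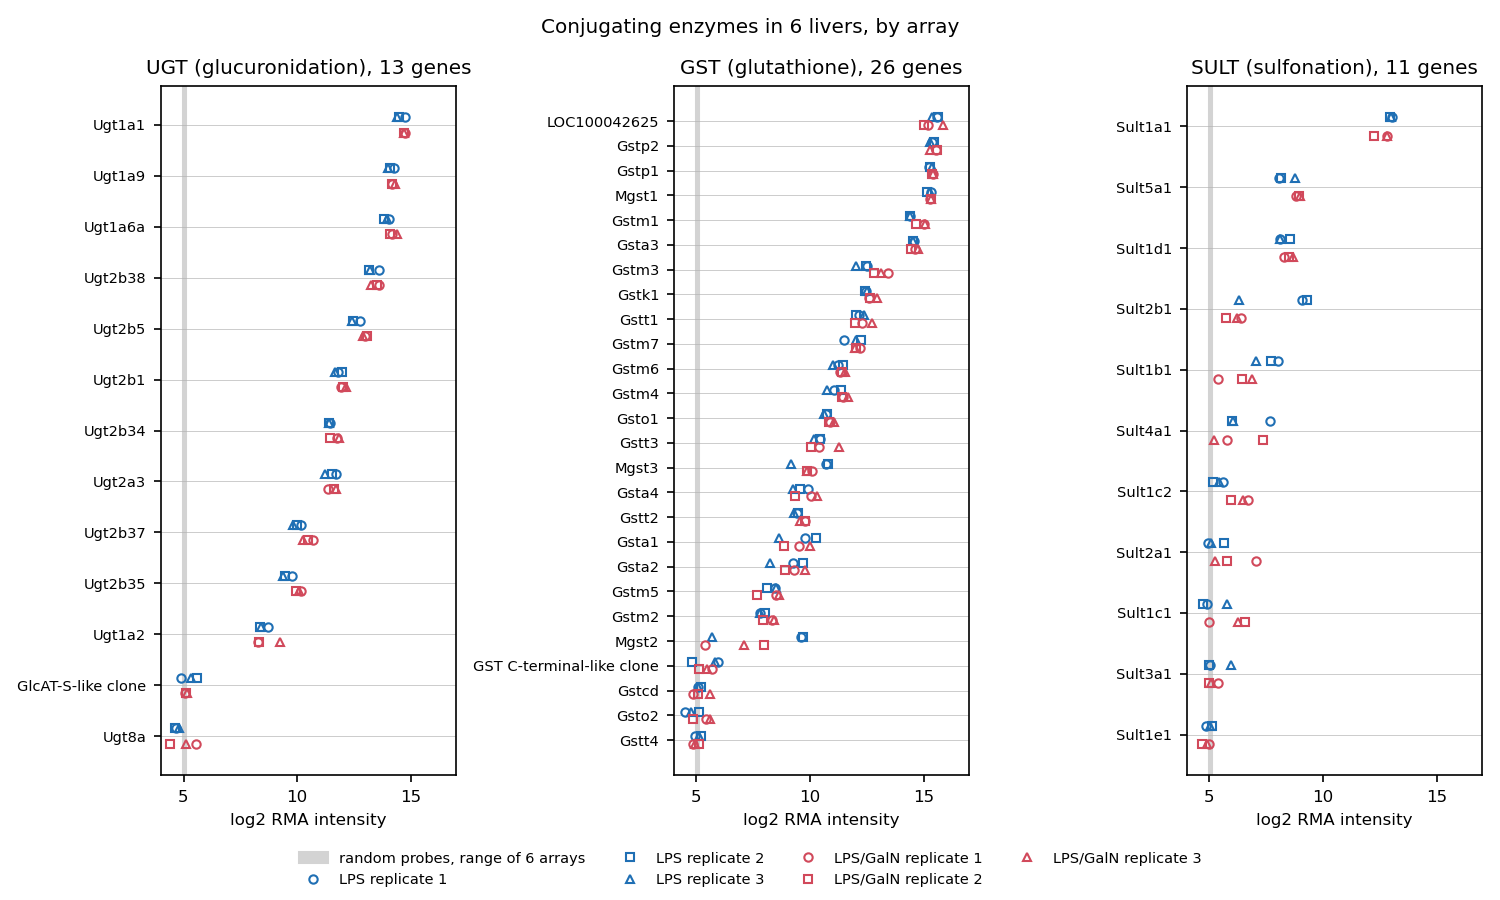
The log2 RMA intensity of every conjugating enzyme gene (one line per gene) is drawn for each of the 6 arrays, LPS in blue above the line and LPS/GalN in red below it, with the range of the random-probe level as a grey band. Of the 50 genes, 40 lay above the random-probe level on all 6 arrays, and 4 (Gstp1, Gstp2, Mgst1 and LOC100042625) had a group mean above a log2 of 15, close to the highest values of the arrays.

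Of the 50 genes, 40 were above the random-probe level on all 6 arrays, namely 11 of 13 UGT, 22 of 26 GST and 7 of 11 SULT. The sizes of the differences were small for most. The 95% interval of the difference lay within 1 log2 unit of 0, that is within a 2-fold change either way, for 31 of 50 genes, or 62%, against 48.8% of all features and 71.0% of the 4492 features at or above the members' median level. By class this held for 10 of 13 UGT, 17 of 26 GST and 4 of 11 SULT. The median difference was 0.23 over the UGT genes, 0.15 over the GST genes and -0.15 over the SULT genes, beside 0.05 over all features. The features at or above the members' median level had a median difference of 0.16, and 67.2% of them lay above 0. The medians of the UGT and GST genes are thus read against 0.16 as much as against 0.05. In bulk liver RNA, fewer cells of a type and less RNA per cell cannot be told apart.

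**Figure D2:**
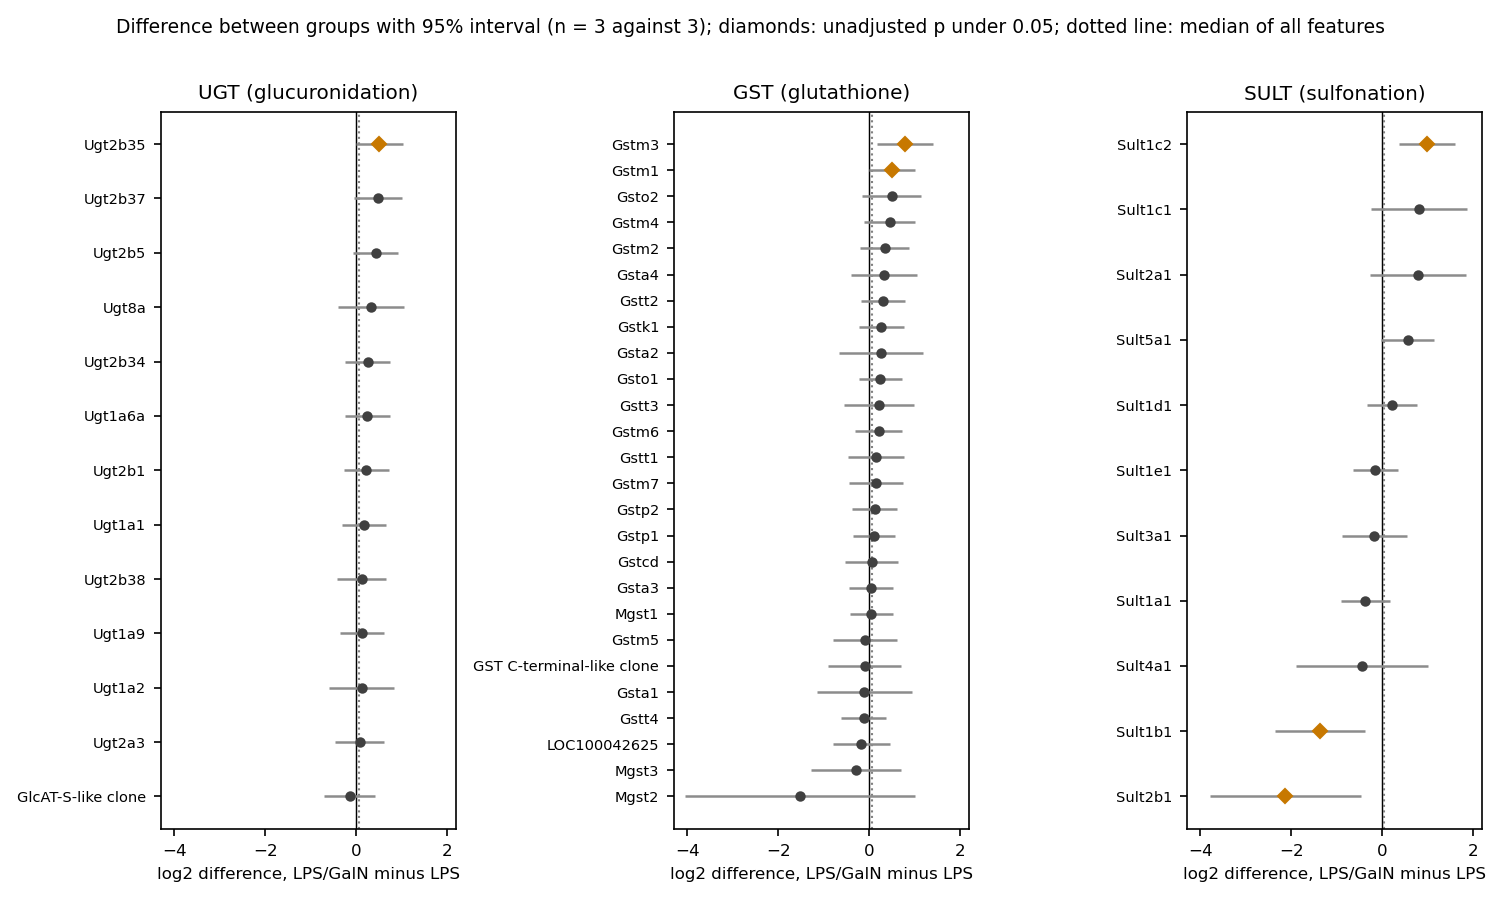
Each point is the log2 difference of a gene between LPS/GalN and LPS with its 95% interval from limma (3 against 3 arrays), by class; diamonds mark an unadjusted p under 0.05 and the dotted line the median of all features, 0.05. The UGT points lie between -0.15 and 0.51, the GST points between -1.53 and 0.78 and the SULT points between -2.13 and 0.99.

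Among the UGT genes, 12 of 13 had a difference above 0, as did all 11 that were above background on every array, beside 54.9% of all features and 67.2% of those at or above the members' median level. The largest difference was 0.51 and the lowest -0.15, and 0 passed the adjusted threshold. The Ugt1a genes are alternative first exons, each with its own promoter, spliced to shared downstream exons, and in the mm9 coordinates of the files 4 of them span 148 kb of chromosome 1 (89967374 to 90115573). Ugt1a1 conjugates bilirubin, Ugt1a6a simple planar phenols and Ugt1a9 bulky phenols. Because the exons are shared and the files give no probe positions, signal of the 4 isoforms cannot be told apart with certainty.

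Ugt1a1, Ugt1a6a and Ugt1a9 were nearly level across the 6 mice, and Ugt1a2 was less so. Ugt1a1 read 14.75, 14.50 and 14.41 in LPS and 14.77, 14.69 and 14.72 in LPS/GalN. Its groups overlapped, with a difference of 0.17 (SE 0.21, 95% interval -0.32 to 0.66, adjusted p = 0.737). Ugt1a6a read 14.06, 13.84 and 13.98 in LPS and 14.17, 14.07 and 14.38 in LPS/GalN. Every LPS/GalN value lay above every LPS value, but the difference of 0.25 (SE 0.21) did not pass (adjusted p = 0.612). Ugt1a9 differed by 0.12 and Ugt1a2 by 0.12, with adjusted p values of 0.812 and 0.886. Ugt1a2 read 8.70, 8.37 and 8.43 in LPS and 8.26, 8.34 and 9.25 in LPS/GalN, where replicate 3 alone stood high. The 95% interval of each of the 4 Ugt1a genes lay within a 2-fold change.

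The Ugt2 genes, which glucuronidate steroids, bile acids and many drugs, form a cluster of 7 members over 534 kb of chromosome 5 (mm9, 87318794 to 87853213). All 7 differences were above 0, with a median of 0.25. In 3 genes the groups did not overlap, with higher values in LPS/GalN. This held for 13.0% of all features and for 1412 of the 4492 features at or above the members' median level. Ugt2b35 read 9.79, 9.48 and 9.37 in LPS and 10.15, 9.97 and 10.07 in LPS/GalN. The 3 LPS/GalN values were tightly spaced above the LPS values, giving a difference of 0.51 (SE 0.22, unadjusted p = 0.0488, adjusted p = 0.282). Ugt2b37 read 10.15, 10.02 and 9.82 against 10.72, 10.46 and 10.26. Its lowest LPS/GalN value was 10.26 and its highest LPS value 10.15, and the difference was 0.48 (SE 0.23, adjusted p = 0.333). Ugt2b5, an abundant liver form, read 12.77, 12.48 and 12.44 against 12.98, 13.08 and 12.91. The groups again stood apart, by 0.43 (SE 0.21, adjusted p = 0.354).

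The rest of the Ugt2 cluster differed less. Ugt2b34 read 11.46, 11.40 and 11.42 in LPS and 11.77, 11.43 and 11.83 in LPS/GalN, a difference of 0.25 (SE 0.22, adjusted p = 0.613). Its second LPS/GalN value lay among the LPS values. Ugt2b1, a form that glucuronidates opioids in the rat, read 11.80, 11.97 and 11.68 against 11.94, 12.03 and 12.15. The ranges overlapped, with a difference of 0.23 (SE 0.21, adjusted p = 0.646). Ugt2b38 and Ugt2a3 differed by 0.13 and 0.07, with adjusted p values of 0.831 and 0.909. The Ugt2b genes are close in sequence, so cross-hybridisation between them cannot be judged from the files. Outside both clusters, Ugt8a (0.32) and the GlcAT-S-like clone (-0.15) lay near the random-probe level.

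The mu-class GST genes held the GST differences with the smallest p values. This class, which conjugates epoxides and quinones, forms a cluster of 7 genes over 149 kb of chromosome 3 (mm9, 107698817 to 107847700). Of the 7, 6 had a difference above 0, with a median of 0.34. Gstm1, the main mu enzyme of mouse liver, read 14.40, 14.39 and 14.40 in LPS and 15.03, 14.65 and 15.05 in LPS/GalN. The 3 LPS mice were within 0.02 of each other, and all 3 LPS/GalN mice were above them. The difference was 0.51 (SE 0.22), or 1.43-fold, with an adjusted p of 0.279. The second target of Gstm1 read 14.50, 14.38 and 14.10 against 14.97, 14.74 and 14.90. Its LPS values were less tightly spaced, its groups did not overlap, and it differed by 0.54. Gstm3 read 12.52, 12.48 and 12.01 against 13.45, 12.79 and 13.12. Its groups did not overlap either, and the difference of 0.78 (SE 0.27), or 1.72-fold, had an adjusted p of 0.179.

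Gstm4 read 11.04, 11.37 and 10.73 in LPS and 11.46, 11.39 and 11.66 in LPS/GalN. The gap between the groups was narrow, between 11.37 and 11.39, and the difference was 0.46 (SE 0.24, adjusted p = 0.391). Gstm2 read 7.78, 8.01 and 7.82 against 8.32, 7.92 and 8.40, with overlapping groups and a difference of 0.34 (SE 0.23, adjusted p = 0.502). Gstm6 (0.21), Gstm7 (0.15) and Gstm5 (-0.08) lay closer to 0. The Gstm genes are closely similar paralogs, so a target may carry signal from a neighbour.

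Alpha-class enzymes reduce lipid hydroperoxides and detoxify aflatoxin. Gsta3, a constitutive alpha form of mouse liver, lies on chromosome 1 apart from the other 3 alpha genes, which span 150 kb of chromosome 9 (mm9, 78039826 to 78189745). It varied little between mice. Gsta3 read 14.58, 14.53 and 14.54 in LPS and 14.60, 14.44 and 14.75 in LPS/GalN. The groups overlapped, and the difference was 0.05 (SE 0.21, 95% interval -0.43 to 0.53, adjusted p = 0.938). Gsta1 and Gsta2, the inducible alpha pair, varied more between mice than between groups. Gsta1 read 9.78, 10.27 and 8.63 against 9.52, 8.87 and 9.98. Gsta2 read 9.24, 9.69 and 8.25 against 9.28, 8.90 and 9.76. In both, LPS replicate 3 and LPS/GalN replicate 2 were the low mice of their groups. The differences were -0.10 (SE 0.46, adjusted p = 0.941) and 0.25 (SE 0.40, adjusted p = 0.80). Gsta4, which conjugates the lipid peroxidation product 4-hydroxynonenal, read 9.92, 9.55 and 9.26 against 10.05, 9.35 and 10.30, with a difference of 0.32 (SE 0.31, adjusted p = 0.659).

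The promoters of Gsta3 and of Mgst1, the main microsomal GST of liver, are shown because they hold the core of the antioxidant response element, the site that NRF2 binds with a small MAF protein. RefSeq promoter windows (GRCm38.p6, 250 bases before to 50 after the start) were found for 43 of the 47 genes with symbols. A gene was counted if any of its windows held the letters on either strand. The core TGACNNNGC occurred for 4 of 22 GST genes (Gsta3, Gstm5, Gstm7 and Mgst1), 0 of 12 UGT and 0 of 9 SULT genes. This was 4 of 43 members, or 9.30%, beside 13.99% of all 27025 genes in the table, so its occurrence says little. The core began 121 bases before the start in Gsta3 and 56 bases before it in Mgst1, where it reads on the minus strand. Mgst1 has 2 windows, and only the window shown holds the core. The core is in capitals in the following windows.
Gsta3, chr1:21240335-21240634, plus strand: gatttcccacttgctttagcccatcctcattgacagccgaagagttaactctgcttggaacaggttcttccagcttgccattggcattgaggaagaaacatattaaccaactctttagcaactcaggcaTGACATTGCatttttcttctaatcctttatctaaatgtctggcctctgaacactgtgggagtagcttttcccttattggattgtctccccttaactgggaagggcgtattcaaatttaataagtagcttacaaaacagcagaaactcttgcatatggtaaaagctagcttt
Mgst1, chr6:138140277-138140576, plus strand: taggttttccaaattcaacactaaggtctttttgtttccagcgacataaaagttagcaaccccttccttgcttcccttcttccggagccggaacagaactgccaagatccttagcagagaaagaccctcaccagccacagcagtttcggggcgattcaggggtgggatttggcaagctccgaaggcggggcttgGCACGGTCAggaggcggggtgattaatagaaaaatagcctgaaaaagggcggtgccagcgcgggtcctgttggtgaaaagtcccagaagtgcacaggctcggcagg
A match of these letters is a description and not a shown binding site. The 4 GST genes with the core had a median difference of 0.05, and the 18 without it 0.22. The xenobiotic response element core GCGTG, the site of AHR, occurred for 11 of 43 members and for 35.2% of all genes in the table, so its occurrence says little. No match says only that these letters are not in this window.

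Pi-class GST, the predominant cytosolic form in male mouse liver, was close to the top of the intensity scale on all arrays. Gstp1 read 15.23, 15.26 and 15.38 in LPS and 15.41, 15.37 and 15.41 in LPS/GalN, and differed by 0.11 (SE 0.20, adjusted p = 0.834). Gstp2 read 15.37, 15.45 and 15.29 against 15.56, 15.61 and 15.29, and differed by 0.12 (SE 0.21, adjusted p = 0.825). Both pairs of groups overlapped. The 2 genes lie within 6.82 kb of chromosome 19 (mm9) and are nearly identical, so their signals cannot be separated here. The pi-like locus on chromosome 1 differed by -0.17 (adjusted p = 0.805).

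The theta, kappa and omega genes differed by 0.50 or less. Gstt1, which acts on halogenated methanes, read 12.16, 12.00 and 12.37 in LPS and 12.27, 11.97 and 12.74 in LPS/GalN, with a difference of 0.15 (SE 0.27, adjusted p = 0.818). Gstt2 read 9.42, 9.46 and 9.29 against 9.79, 9.76 and 9.54. Its groups did not overlap, with a difference of 0.30 (SE 0.21, adjusted p = 0.512). Gstt3 read 10.42, 10.44 and 10.16 against 10.40, 10.03 and 11.27, so that LPS/GalN replicate 3 alone stood high, and differed by 0.22 (SE 0.33, adjusted p = 0.785). Gstk1, the mitochondrial and peroxisomal kappa form, read 12.46, 12.40 and 12.52 against 12.59, 12.65 and 12.96, with a difference of 0.27 (SE 0.22, adjusted p = 0.578). Gsto1, an omega enzyme that reduces dehydroascorbate, read 10.69, 10.76 and 10.59 against 10.89, 10.82 and 11.07, with a difference of 0.25 (SE 0.21, adjusted p = 0.597). The Gstk1 and Gsto1 groups did not overlap, yet both intervals include 0.

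The microsomal GST enzymes are membrane proteins of another fold. Mgst1 read 15.31, 15.13 and 15.30 in LPS and 15.27, 15.31 and 15.31 in LPS/GalN, a difference of 0.05 (SE 0.20, adjusted p = 0.938). Mgst2, which can make leukotriene C4, read 9.62, 9.71 and 5.69 in LPS and 5.38, 7.98 and 7.08 in LPS/GalN. The LPS mice split into a high pair and a single low value, and the groups overlapped. Its difference of -1.53 (SE 1.10, 95% interval -4.06 to 1.005) did not pass (adjusted p = 0.532). Mgst3 read 10.71, 10.81 and 9.16 against 10.09, 9.86 and 9.88, and differed by -0.28 (SE 0.43, adjusted p = 0.789).

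The SULT genes had differences from -2.13 to 0.99, with 5 of 11 above 0. Sult1a1, the phenol sulfotransferase of liver, read 13.02, 12.96 and 13.00 in LPS and 12.81, 12.26 and 12.81 in LPS/GalN. All 3 LPS/GalN values were lower and LPS/GalN replicate 2 was the lowest, but the difference of -0.37 (SE 0.24) did not pass (adjusted p = 0.485). Sult1b1, which sulfonates thyroid hormone, read 8.03, 7.70 and 7.05 against 5.36, 6.45 and 6.87. The groups did not overlap, with a difference of -1.37 (SE 0.43), or 2.58-fold lower (unadjusted p = 0.0124, adjusted p = 0.146). Sult2b1, a cholesterol and hydroxysteroid sulfotransferase, read 9.08, 9.31 and 6.32 against 6.41, 5.71 and 6.20. The third LPS mouse lay with the LPS/GalN mice, and the difference of -2.13 (SE 0.72) did not pass (adjusted p = 0.177). Leaving out LPS replicate 3 made it -3.09 with an adjusted p of 0.00325, and this was the only setting in which a member passed as lower. The LPS arrays left in that fit, replicates 1 and 2, were those with high intestine markers. Without these 2 arrays the difference of Sult2b1 was -0.22.

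Other SULT genes had higher values in LPS/GalN without passing. Sult1c2 read 5.59, 5.16 and 5.42 in LPS and 6.71, 5.96 and 6.47 in LPS/GalN. All of its values were above background, but its LPS values lay close to it. On LPS replicate 2 it read 5.16 beside a random-probe level of 5.08, so the fold rests on a near-background group. The groups stood apart, with a difference of 0.99 (SE 0.27), or 1.99-fold (unadjusted p = 0.00593, adjusted p = 0.100, the smallest of any member). Its neighbour Sult1c1 differed by 0.81 (adjusted p = 0.417) but was below background on some arrays. Sult5a1 read 8.08, 8.17 and 8.77 against 8.81, 8.95 and 8.97. The LPS/GalN values were close together just above the highest LPS value, with a difference of 0.57 (SE 0.25, adjusted p = 0.298). Without LPS replicates 1 and 2 the difference of Sult5a1 was 0.14 (adjusted p = 0.929).

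Sult1d1, a catecholamine sulfotransferase, read 8.11, 8.57 and 8.12 in LPS and 8.27, 8.50 and 8.67 in LPS/GalN. The groups overlapped, with a difference of 0.22 (SE 0.24, adjusted p = 0.702). Sult1b1, Sult1d1 and Sult1e1 span 78.2 kb of chromosome 5 (mm9, 87942363 to 88020577), and the Ugt2 cluster ends 89.1 kb away. Within this stretch of 702 kb the 7 Ugt2 differences were all above 0, while the 3 Sult1 differences were -1.37, 0.22 and -0.15. Sult4a1, a brain form, read 7.65, 5.98 and 6.02 against 5.75, 7.36 and 5.20, with 1 high mouse in each group and a difference of -0.45 (SE 0.63, adjusted p = 0.773).

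The remaining sulfotransferases were at or near background in these male livers, including Sult2a1 and Sult3a1, which are known as female-predominant in mouse liver. Sult1e1, the estrogen sulfotransferase, read 4.85, 5.12 and 5.04 in LPS and 4.98, 4.68 and 4.91 in LPS/GalN, where the random-probe level was 4.97 to 5.12. Sult3a1 read 5.03, 5.002 and 5.94 against 5.40, 4.99 and 5.08, with overlapping groups and a difference of -0.17 (SE 0.31, adjusted p = 0.828). Sult2a1, a bile acid and steroid sulfotransferase, read 4.94, 5.65 and 5.06 against 7.05, 5.76 and 5.23. A single mouse, LPS/GalN replicate 1, stood above the rest, and the difference of 0.80 (SE 0.46) did not pass (adjusted p = 0.428). The other target of Sult2a1 differed by 1.31 with the same mouse highest, at 7.82.

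A shared pattern across arrays was found in 4 members. Mgst2, Sult2b1, Sult1b1 and Mgst3 were each higher on both LPS replicates 1 and 2 than on any of the other 4 arrays. This held for 4 of 50 members and for 8.50% of all features, so the share is close to that of the array as a whole. The same arrays had high intestine markers. Of the 9 of 10 intestine markers that were measured, 8 were higher on these 2 arrays than on the rest, and 0 were at or below background on all arrays. Muc2, the goblet cell mucin, read 10.48 and 11.06 on them and 4.52 to 5.33 on the others. Vil1, the brush border protein villin, read 13.04 and 13.02 against 5.73 to 7.21. The summed intensity of the 9 markers was 22400 and 24629 on LPS replicates 1 and 2, 3447 on LPS replicate 3 and 2109 to 2689.7 on the LPS/GalN arrays. Of the 5 of 6 measured bile duct markers, Krt19 and Epcam were also higher on these 2 arrays, while Spp1, Sox9 and Krt7 were not.

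**Figure D3:**
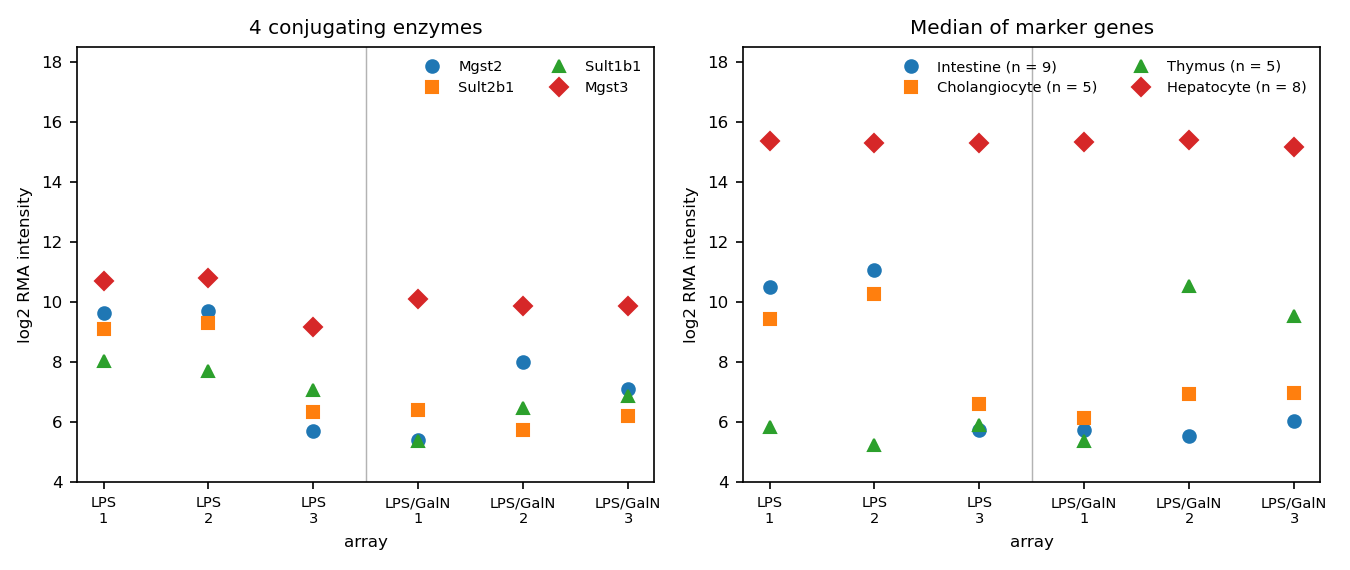
Left, log2 RMA intensity of Mgst2, Sult2b1, Sult1b1 and Mgst3 on each array; right, the median log2 intensity of marker genes of 4 tissues or cell types on the same arrays, with the number measured. All 4 enzymes and the intestine markers are highest on LPS replicates 1 and 2; the hepatocyte median lies between 15.17 and 15.40, close to the top of the scale on every array.

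These 4 enzymes were picked for being high on LPS replicates 1 and 2, so leaving out those arrays had to raise their differences, and the values without them are given as a description. Mgst2 was then 1.12 higher in LPS/GalN, and Mgst3 was 0.78 higher. The sign for Mgst2 depended on LPS/GalN replicates 2 and 3 (7.98 and 7.08), the arrays with high thymus markers. On LPS/GalN replicate 1 Mgst2 read 5.38, below its 5.69 on LPS replicate 3. Mgst3 read 10.09 and 9.16 on these 2 arrays. Sult2b1 differed by -0.22 and Sult1b1 by -0.83. That fit rests on 1 LPS array, which is assumed to vary like the LPS/GalN arrays, and it called 0 of 36557 features in either direction. With every LPS array kept and LPS/GalN replicate 1 alone in its group, Mgst2 differed by -2.96 and Mgst3 by -0.13. Sult2b1 then differed by -1.83 and Sult1b1 by -2.24. The part of the intestine and thymus transcripts in these results was not tested. Another 4 members had an unadjusted p under 0.05 and higher values in LPS/GalN in the fit of all 6 arrays. Without LPS replicates 1 and 2 they differed by 0.51 (Gstm1), 1.11 (Gstm3), 0.69 (Ugt2b35) and 0.96 (Sult1c2). They were picked as higher partly from the arrays kept here, so these values too are a description and no second test.

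The genes that feed and control conjugation were read from a list by role, of which 56 of 64 were measured. Of these, 0 passed as higher and 3 as lower: the regulators Nfe2l2 and Maff and the transporter Slc35b3. Over all features 0.602% passed as higher and 3.02% as lower, so a few lower calls in a list of 56 are not particular to conjugation. For UDP-glucuronic acid supply, 0 of 6 passed and 5 of 6 had a difference above 0. Ugp2, which makes UDP-glucose, read 11.48, 11.38 and 10.87 in LPS and 11.66, 11.49 and 11.76 in LPS/GalN, a difference of 0.40 (SE 0.25, adjusted p = 0.464). Ugdh, which oxidises UDP-glucose to UDP-glucuronic acid, read 11.99, 12.11 and 11.75 against 11.79, 11.55 and 12.31. It differed by -0.07 (SE 0.26, adjusted p = 0.928). Galk1, the galactokinase, read 11.78, 11.38 and 11.44 against 12.02, 11.93 and 12.09. Its groups did not overlap, with a difference of 0.48 (SE 0.22, adjusted p = 0.308).

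For glutathione supply, 0 of 12 passed. Gclc, the catalytic subunit of the rate-limiting enzyme of glutathione synthesis, read 12.21, 11.68 and 11.96 in LPS and 12.69, 12.48 and 12.59 in LPS/GalN. All LPS/GalN values were higher, by 0.64 on average (SE 0.23, adjusted p = 0.202). Gclm, its modifier subunit, read 11.77, 11.44 and 11.43 against 12.15, 11.97 and 11.97, a difference of 0.48 (SE 0.22, adjusted p = 0.304). With the level-dependent and robust spread, Gclc passed as higher (adjusted p = 0.00989), as did the export pump Abcc3 (0.0118).

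For PAPS supply, 1 of 7 passed, as lower. Slc35b3, which carries PAPS into the Golgi, read 7.55, 7.55 and 7.60 in LPS and 5.91, 5.65 and 6.77 in LPS/GalN. The LPS mice were within 0.05 of each other and all LPS/GalN mice were lower. The difference was -1.46 (SE 0.31), or 2.74-fold lower, with an adjusted p of 0.0450. Leaving out single arrays gave adjusted p values from 0.0148 to 0.144, and 5 of the 6 no longer passed. Over the alternatives the difference of Slc35b3 ranged from -1.79 to -0.80. It did not pass when the mean of a gene's targets was used in place of the brightest. Golgi sulfation serves proteins and sugar chains and not the cytosolic SULT enzymes. Papss2, the main PAPS synthase of liver, read 12.30, 12.44 and 11.98 against 12.38, 12.00 and 12.68, with overlapping groups and a difference of 0.12 (SE 0.26, adjusted p = 0.863). Among 12 genes of other conjugation reactions and 3 conjugate exporters, 0 passed.

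Of 14 regulators, 2 passed as lower in LPS/GalN than in LPS and 0 as higher, beside 3.02% and 0.602% of all features. Nfe2l2 read 9.59, 9.62 and 9.60 in LPS and 8.64, 8.43 and 8.16 in LPS/GalN. The LPS mice were nearly identical and every LPS/GalN mouse was lower. The difference of Nfe2l2 was -1.19 (SE 0.22), or 2.29-fold lower (adjusted p = 0.0257). Leaving out single arrays gave adjusted p values from 0.0276 to 0.0986, and 5 of the 6 no longer passed. Maff, a small MAF protein that can pair with NRF2, read 12.21, 12.34 and 11.71 against 10.15, 10.48 and 9.96. Maff differed by -1.89 (SE 0.26), or 3.70-fold lower (adjusted p = 0.00706), and passed without any single array (adjusted p 0.00979 to 0.0412). The 4 GST genes with the antioxidant core in their promoter windows differed by 0.05 (Gsta3), 0.05 (Mgst1), -0.08 (Gstm5) and 0.15 (Gstm7), with Mgst1 close to the top of the scale. Gclc and Gclm, known targets of NRF2, had the differences of 0.64 and 0.48 given above, which did not pass. This is a comparison of transcript levels at 2.5 h, and NRF2 protein was not measured.

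The nuclear receptors and AHR did not pass. Nr1i3 (CAR) read 9.45, 8.82 and 9.55 in LPS and 10.34, 9.85 and 9.66 in LPS/GalN, a difference of 0.67 (SE 0.29, adjusted p = 0.288). Nr1i2 (PXR) read 9.39, 9.01 and 8.85 against 9.48, 9.22 and 10.33, a difference of 0.60 (SE 0.33, adjusted p = 0.408). The CAR groups did not overlap and the PXR groups did. Ahr read 7.78, 6.92 and 7.89 against 6.64, 6.30 and 6.23. All LPS/GalN values were lower, with a difference of -1.14 (SE 0.31, adjusted p = 0.101).

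**Figure D4:**
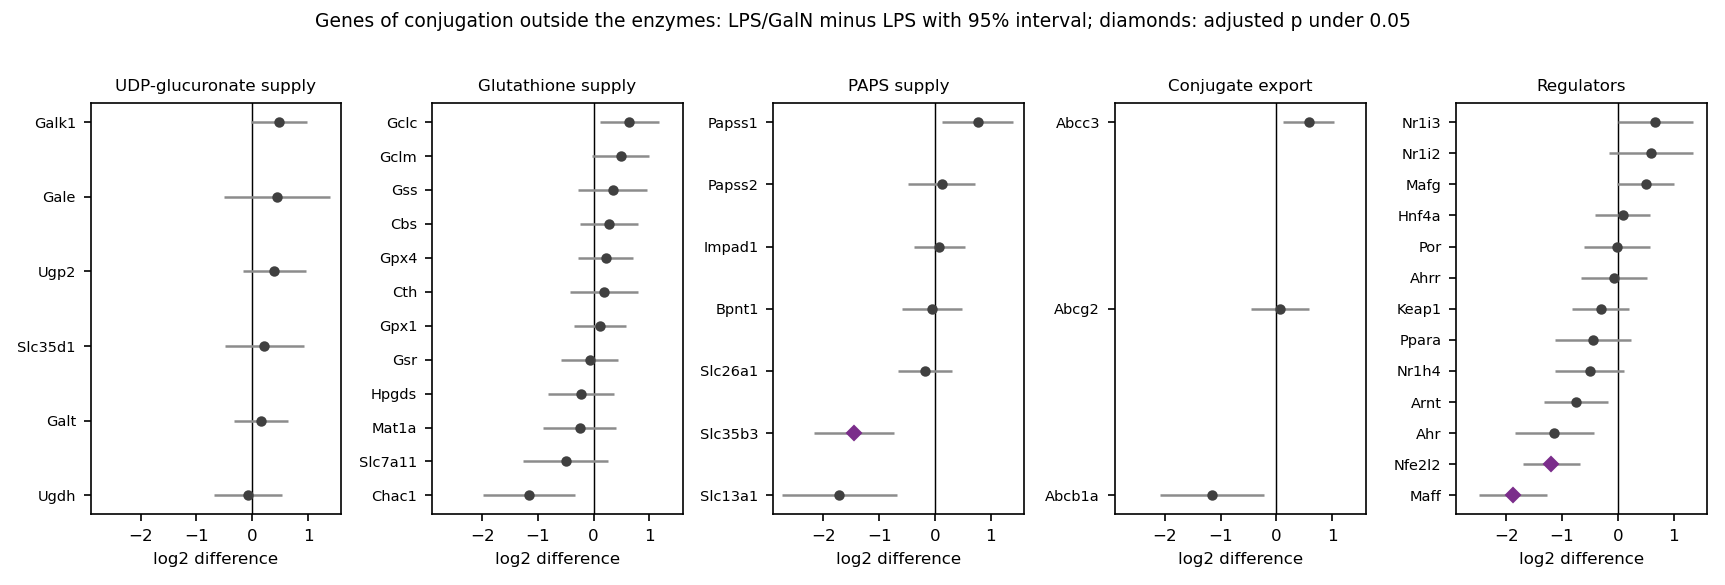
Each point is the log2 difference between LPS/GalN and LPS with its 95% interval for genes of donor supply, conjugate export and regulation, with diamonds at an adjusted p under 0.05; not every regulator of the list is drawn. Slc35b3, Nfe2l2 and Maff are the 3 diamonds, at -1.46, -1.19 and -1.89.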

How the data were processed

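Each array came as a deposited list of RMA intensity (linear scale, single colour), per the file headers; the submitters' processing notes name RMA without a version. RMA subtracts background, brings the arrays to 1 distribution and combines the 3 probes of a target, so a global shift of RNA is removed. The log2 of these intensities was fitted with limma 3.58.1 in R 4.3.3 (lmFit, eBayes), two-sided, with the group as the only term. Benjamini-Hochberg adjustment ran over all features, with 0.05 as the threshold. Targets were joined by gene name and chromosome, with no filter on dim features. The steps were tested on simulated data. With 3 arrays a group, their number limits the precision. There were 17 alternatives.

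The members and lists were chosen with earlier results of these data known. Values by array are given for members past the threshold, for up to 3 more per class whose groups did not overlap, and for a fixed set of members and related genes. Galk1, Abcc3, Muc2 and Vil1 were named after their values were seen, and the printed promoters were picked after the motif search. Ugt2b36 and Gstz1, on that fixed set, were not members by the descriptions. Some items of the lists and of the motif search are not reported here.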

Additional observations from a re-analysis of the deposited data

How the results depend on the processing

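Members called higher numbered 0, except 3 with trend and robust fitting. Members called lower ranged from 0 to 1 when leaving out single replicates, the 1 being Sult2b1 without LPS replicate 3. Over all features, 220 were called higher. This count was 647 in the deposited value table, 578 with a pseudocount of 50, 902 with trend and robust fitting, 21 without LPS/GalN replicates 2 and 3, 0 without LPS replicates 1 and 2, and 36 to 638 without single replicates. The 1103 called lower became 247 without LPS/GalN replicates 2 and 3, 0 without LPS replicates 1 and 2, and 647 to 1111 without single replicates. Related genes called higher, 0 in the fit reported, numbered 1 in the deposited table, 1 with the pseudocount and 3 with trend and robust fitting. The 3 called lower became 7, 5 and 8 in these settings, 0 without either pair of arrays, and 1 to 4 without single replicates. The median difference stayed above 0 for UGT (0.16 to 0.27) and GST (0.07 to 0.36), while that of SULT ranged from -0.21 to 0.14.

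Samples with the same replicate number did not deviate together (correlations 0.003, -0.003 and 0.026 across features), so no pairing by number was seen. With few arrays, some set apart by intestine or thymus transcripts, this cannot exclude a pairing. With the replicate block, 114 features were called higher and 829 lower, 0 members in either direction, and 1 related gene lower.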
